A study of Sus scrofa with 32 samples.

Results

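CYP4A21 and CYP4A24 are porcine members of the CYP4A family of cytochrome P450 enzymes, and they were followed here through fetal liver development. The members are all probe sets whose array annotation contains either symbol. There were 2 of 24123 probe sets, and both carried both symbols. They are called here by the ends of their array IDs, the _s_at probe set, whose suffix marks probes that can bind several transcripts, and the _at probe set. The symbols were chosen by measured values, namely the difference between the diets at 35 days post conception (dpc), so that difference is given as a description with no test. No probe set carried 1 of the symbols alone, so CYP4A21 and CYP4A24 cannot be told apart in these data. In the RefSeq annotation of Sscrofa11.1 the genes lie close together, with 3 gene models between them, 2 protein coding and 1 a pseudogene, all with provisional LOC names. Whether transcripts of these neighbours also bind the probes was not tested.

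All samples were livers of Pietrain fetuses, and each was hybridised to 1 porcine expression array. The gilts received either a control diet or a methyl-enriched diet during gestation. Each diet had 5 arrays at 35 dpc, 6 at 63 dpc and 5 at 91 dpc, for 32 arrays in all. Which fetuses shared a dam or litter is not given in the labels, so the p-values below measure the spread between these samples only.

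CYP4A enzymes sit in the endoplasmic reticulum and add a hydroxyl group to the terminal, or omega, carbon of fatty acids, with electrons supplied by POR and cytochrome b5. The products are oxidised further by alcohol and aldehyde dehydrogenases to dicarboxylic acids, which are shortened mainly in peroxisomes. CYP4A24 hydroxylates fatty acids, whereas CYP4A21 is known in the pig as the enzyme that makes hyocholic acid, a bile acid characteristic of this species. In rodent liver the CYP4A genes are standard targets of PPARA, the fatty acid receptor. The family is also abundant in kidney.

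The samples expressed hepatocyte genes at every age. Of 20 hepatocyte markers, 17 were on the array and all 17 lay above the array's 40th percentile on every array; albumin (ALB) averaged 11.4, 14.8 and 15.3 on the deposited log2 scale at the 3 ages in turn. LRP2, a kidney tubule receptor, was above that percentile on 0 arrays and SLC22A6, a kidney anion transporter, on 16. Of 7 intestinal markers on the array, FABP2 and TFF3 were above it on 0 arrays, LGALS4 on 2 and FABP6 on 3, whereas VIL1, CDH17 and ANPEP were above it on all 32. The mean of 9 erythroid markers was 10.8 to 11.6 at 35 dpc, 10.4 to 11.1 at 63 dpc and 8.42 to 9.70 at 91 dpc. Arrays also separated by the gap between the spike-in controls bioC and bioB into 18 with a large gap and 14 with a small one, spread evenly over the diets at each age, with 3 large-gap arrays in every group; no label names this split. Across all probe sets tested, 24.1% differed between these array classes at an adjusted p under 0.05.

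Both CYP4A probe sets were above the 40th percentile (2.74 to 2.93) on all 32 arrays. Their 6 group means fell in the same order. For the _s_at probe set the mean signal was 5.00 ± 0.47 (SD, n = 5) in control fetuses at 35 dpc, 5.44 ± 0.23 (n = 6) with the methyl diet at 63 dpc and 5.96 ± 0.53 (n = 6) in controls at 63 dpc. The next means in this order were 6.48 ± 0.51 (n = 5) with the methyl diet at 35 dpc, 7.05 ± 0.49 (n = 5) with the methyl diet at 91 dpc and 7.42 ± 0.48 (n = 5) in controls at 91 dpc. For the _at probe set the same sequence of groups gave 4.58 ± 1.53, 5.57 ± 0.89, 6.28 ± 0.65, 6.91 ± 0.87, 7.20 ± 0.63 and 8.03 ± 0.30 (SD, same n). Every pair of neighbours in this order overlapped in its single values, for both probe sets. The lowest level therefore belonged to the youngest control fetuses and the highest to the oldest control fetuses, with the methyl-diet groups of both these ages between them. This order is a description, because the places of the groups at 35 dpc in it reflect the difference that chose the genes. Levels of different probe sets are not on a common scale and are not compared with each other.

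**Figure D1:**
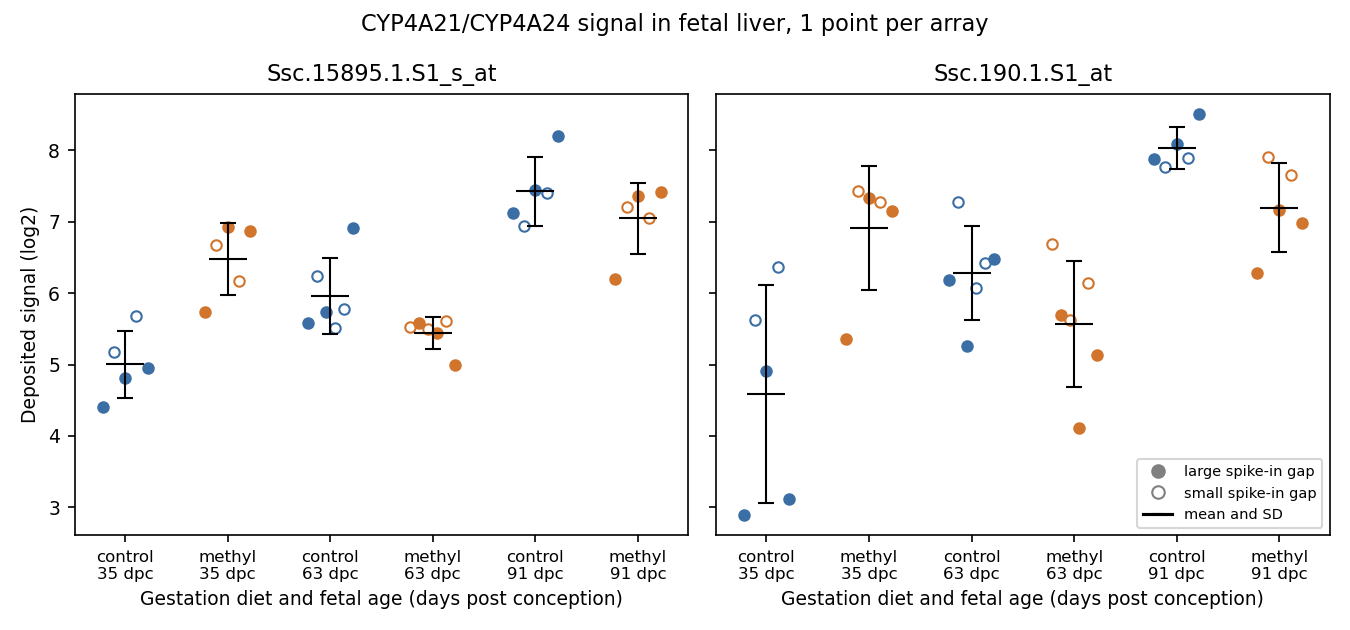
Deposited log2 signal of the 2 CYP4A21/CYP4A24 probe sets (1 panel each) by diet and fetal age. Points are arrays, filled for a large and open for a small bioC-to-bioB gap, and black bars are group means with SD. Control means rise from 35 to 91 dpc, whereas the methyl-diet means dip at 63 dpc (5.44 and 5.57). Both courses start from the values at 35 dpc, whose difference between the diets chose the genes.

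Of the 2 successive age steps, the late one passed the test for the CYP4A signal. At 63 dpc the arrays of the _s_at probe set ran from 5.52 through a median of 5.76 to 6.91 in controls and from 5.00 through 5.51 to 5.61 with the methyl diet. At 91 dpc the control arrays gave 7.12, 6.94, 7.45, 7.41 and 8.20, and the methyl-diet arrays 6.20, 7.21, 7.36, 7.05 and 7.42. Within each diet the ages overlapped on no array for the methyl diet (highest 5.61, lowest 6.20) and on no array for the control diet (highest 6.91, lowest 6.94). Between 63 and 91 dpc, averaged over the diets, the _s_at probe set rose by 1.53 ± 0.19 (SE) on the log2 scale, which is 2.89-fold (limma, adjusted p = 7.3e-08). Its mean went from 5.70 ± 0.47 (SD, n = 12) to 7.24 ± 0.50 (n = 10).

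The other probe set moved the same way. At 63 dpc the arrays of the _at probe set ran from 5.26 through a median of 6.30 to 7.27 in controls and from 4.11 through 5.66 to 6.68 with the methyl diet. At 91 dpc the control arrays gave 7.88, 7.77, 8.09, 7.90 and 8.52, all above the highest control array at 63 dpc. The methyl-diet arrays at 91 dpc gave 6.29, 7.90, 7.16, 7.66 and 6.98, and the lowest of them lay below the highest methyl-diet array at 63 dpc. The _at probe set rose by 1.69 ± 0.36 (SE), 3.23-fold, between 63 and 91 dpc (limma, adjusted p = 0.000168). Thus 2 of 2 CYP4A probe sets rose between these ages, where 29.5% of all probe sets tested rose and 29% fell.

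The late rise was present in each diet and in each class of arrays. In control fetuses the step from 63 to 91 dpc was 1.46 ± 0.27 (SE) for the _s_at probe set (limma, adjusted p = 7.06e-05) and 1.75 ± 0.50 for the _at probe set (adjusted p = 0.00557). With the methyl diet the steps were 1.60 ± 0.27 (adjusted p = 2.37e-05) and 1.63 ± 0.50 (adjusted p = 0.00964). The difference of the diet effect between the ages, tested directly, was 0.14 ± 0.38 and -0.12 ± 0.71 (limma, adjusted p = 1 for both); 0% of all probe sets passed this test, and 753 had an unadjusted p under 0.05. In large-gap arrays alone the late step averaged over diets was 1.58 for the _s_at probe set and 2.01 for the _at probe set, and in small-gap arrays 1.46 and 1.43.

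Erythroid transcripts moved with age as well. The erythroid mean at 91 dpc did not overlap that at 63 dpc, with 7 of 9 erythroid markers lower and 1 higher at an adjusted p under 0.05. With this mean as a covariate the late CYP4A steps were 1.30 ± 0.54 (SE; limma, adjusted p = 0.113) and 2.64 ± 0.997 (adjusted p = 0.0832), no longer past the threshold. Over all probe sets, 3.79% rose and 6.38% fell at this step with the covariate. In a whole-tissue sample, fewer cells of a type and less RNA per cell cannot be told apart. The mean of 17 hepatocyte markers was 14.2 to 14.5 at 63 dpc and 14.7 to 14.8 at 91 dpc. Of these markers 8 were called higher and 3 lower at this step, with a median difference of 0.06. The part of this mixed shift in the CYP4A rise was not tested. The 3 measured intestinal markers all rose at this step (median 0.48): VIL1 averaged 7.27 at 63 dpc and 7.76 at 91 dpc, CDH17 4.90 and 5.51, and ANPEP 10.7 and 11.1. Their part was not tested either.

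Between 35 and 63 dpc, averaged over the diets, no step was seen that exceeded the spread. The _s_at probe set differed by -0.04 ± 0.19 (SE; 95% interval -0.43 to 0.35; limma, adjusted p = 0.875). The _at probe set differed by 0.18 ± 0.36 (95% interval -0.55 to 0.90; adjusted p = 0.686). At this step 32.5% of all probe sets rose and 28% fell. On this average 0 of 2 CYP4A probe sets passed the test, where 9278 of 15327 probe sets did. Both averages join opposite steps of the diets: controls differed by 0.96 ± 0.27 and 1.70 ± 0.50, and methyl-diet fetuses differed by -1.03 ± 0.27 and -1.35 ± 0.50. These within-diet steps contain the values at 35 dpc that chose the genes, so they are given with no test. The averages use the same arrays, with both diets weighted equally, so a failed test does not show that the signal stayed level.

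From 35 to 91 dpc, averaged over the diets, the signal rose by 1.49 ± 0.20 (SE), 2.82-fold, for the _s_at probe set (limma, adjusted p = 6.54e-08). The rise was 1.87 ± 0.37, 3.65-fold, for the _at probe set (adjusted p = 4.21e-05). Over this span 40.8% of all probe sets rose and 39.1% fell. These averages weight both diets equally but use the arrays at 35 dpc that chose the genes. Quantile normalization shifted the median change of all probe sets from 0.005 to -0.15 and gave 1.23 and 1.66 for the CYP4A probe sets. By diet, and as a description only, the controls differed by 2.42 ± 0.28 and 3.45 ± 0.53, and the methyl-diet fetuses differed by 0.57 ± 0.28 and 0.29 ± 0.53.

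**Figure D2:**
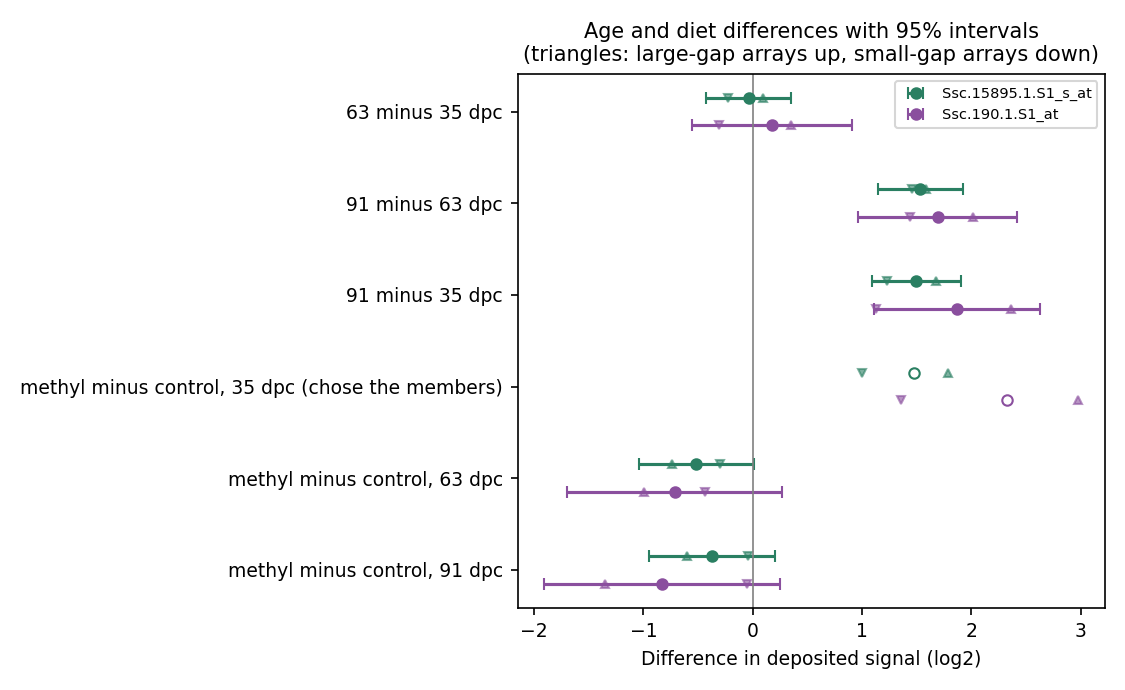
Differences in log2 signal between ages (averaged over diets) and between diets at each age for both probe sets. Circles with bars are estimates with 95% intervals, triangles are the estimates in large-gap (up) and small-gap (down) arrays, and the open circles at 35 dpc have no interval because that contrast chose the genes; the intervals of both late steps (91 minus 63 dpc) lie above 0, and those of the diet at 63 and 91 dpc include 0.

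At 35 dpc the CYP4A signal was higher in the methyl-diet fetuses, which is the property the genes were selected on. For the _s_at probe set the control arrays gave 4.40, 5.18, 4.81, 5.67 and 4.95 and the methyl-diet arrays 5.74, 6.68, 6.93, 6.17 and 6.86, so the diets did not overlap. The difference was 1.47 ± 0.28 (SE), or 2.78-fold. For the _at probe set the control arrays gave 2.89, 5.63, 4.91, 6.37 and 3.12 and the methyl-diet arrays 5.36, 7.43, 7.34, 7.28 and 7.15. Here the lowest methyl-diet array lay below the 2 highest control arrays, and the difference was 2.33 ± 0.53 (SE), or 5.02-fold. At this age 0.0391% of all probe sets differed between the diets at an adjusted p under 0.05.

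The size of the early difference varied with the array class. It was 1.79 and 2.98 in the large-gap arrays and 0.998 and 1.36 in the small-gap arrays, for the _s_at probe set and the _at probe set in turn. The lowest control values of the _at probe set, 2.89 and 3.12, were both on large-gap arrays and near the 40th percentile. In the large-gap arrays of this age the level of the spike-in RNA dap was 5.43 to 11.98 in controls and 6.61 to 8.01 with the methyl diet, against 12.1 to 12.4 in all small-gap arrays. With the gap class as a block and the dap level as a covariate, a setting added after the data were seen, the early differences were 1.65 and 2.57. Over all groups this probe set was lower on large-gap arrays by 0.92 ± 0.25 on the log2 scale (SE; limma, adjusted p = 0.00747), whereas the _s_at probe set differed by -0.05 ± 0.16 (adjusted p = 0.861). Its residual SD of 0.89 stood at the 98.8th percentile of all probe sets tested, whose median was 0.35, and that of the _s_at probe set was 0.46, at the 73.0th percentile.

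At 63 dpc the point estimates lay on the other side of 0 but did not pass the test. Methyl-diet fetuses differed from controls by -0.52 ± 0.26 for the _s_at probe set (SE; 95% interval -1.04 to 0.01; limma, adjusted p = 1). The _at probe set differed by -0.72 ± 0.48 (95% interval -1.70 to 0.27; adjusted p = 1). The diets overlapped on both probe sets. At this age 0% of all probe sets passed, with 219 of 15327 at an unadjusted p under 0.05. Without control array 6 of this age, which was the highest control on the _s_at probe set, the estimate for that probe set was -0.33. Without methyl-diet array 4, the lowest on the _at probe set, the estimate for the latter was -0.42. In the large-gap arrays the estimates were -0.74 and -0.995, and in the small-gap arrays -0.30 and -0.44.

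At 91 dpc the estimates were again below 0 without passing. They were -0.38 ± 0.28 for the _s_at probe set (SE; 95% interval -0.95 to 0.20; limma, adjusted p = 0.987) and -0.83 ± 0.53 for the _at probe set (95% interval -1.91 to 0.24; adjusted p = 0.926). At this age 0.0718% of all probe sets, 11 of 15327, passed, and 0 of 2 CYP4A probe sets did. With the 91 dpc arrays alone the SE was 0.29 for each probe set (limma, adjusted p = 0.907 and 0.848, the _s_at probe set first). For the _at probe set an interval that includes 0 therefore rests on the spread shared with the other ages. The estimates were farther from 0 in the large-gap arrays, with -0.60 and -1.35 there against -0.05 for each probe set in the small-gap arrays. In those large-gap arrays the dap level was 10.7 to 10.9 in controls and 6.62 to 9.56 with the methyl diet. The log2 ratio of 3′ to 5′ control probe sets of actin, GAPDH and EF1A was 1.58 to 2.07 there in controls and 2.11 to 2.63 with the methyl diet. With this ratio as a covariate the estimates at 91 dpc were -0.26 ± 0.30 and -0.21 ± 0.49 (SE; limma, adjusted p = 0.894 and 0.957). With the gap class as a block and the dap level as a covariate they were -0.14 and -0.50. Without methyl-diet array 1 of this age the estimate for the _s_at probe set was -0.17.

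The paired readings rose and fell together across arrays. Pearson's r between the 2 probe sets was 0.871 over the 32 arrays, and 0.860 after the mean of each age and gap class was subtracted from both. It was 0.899 over 10 arrays at 35 dpc, 0.538 over 12 at 63 dpc and 0.741 over 10 at 91 dpc. These are descriptions: the probe sets share symbols, arrays and normalization, and the arrays at 35 dpc carry the diet difference that chose the genes.

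**Figure D3:**
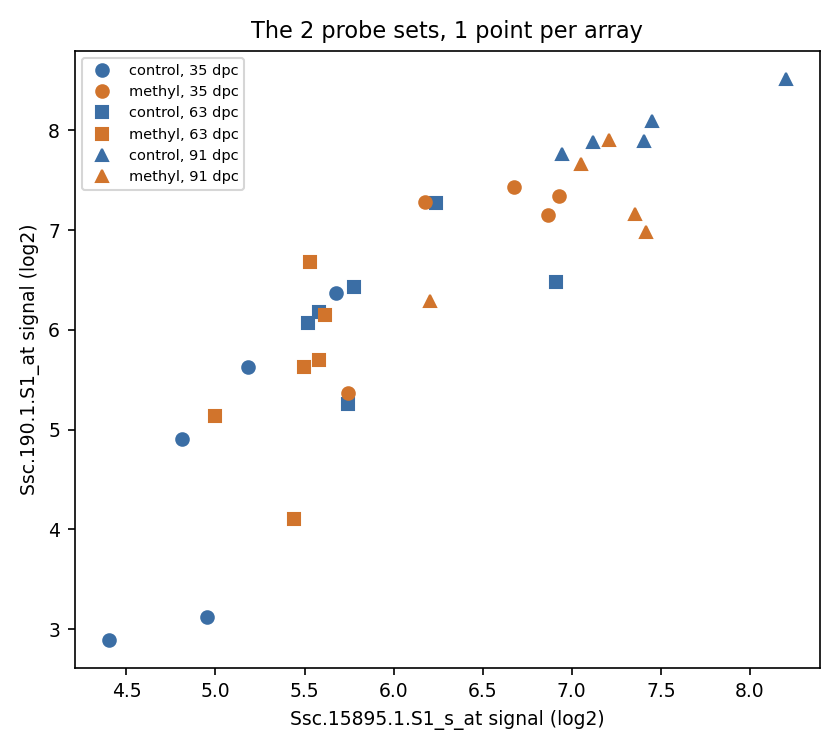
Log2 signal of the _at probe set against the _s_at probe set, 1 point per array, with colour for the diet and shape for the age. The 32 arrays follow a common slope (r = 0.871), from the control fetuses at 35 dpc at the lower left to the control fetuses at 91 dpc at the upper right.

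Patterns most like CYP4A were sought among genes with 1 symbol, by Pearson's r with the _at probe set over 32 arrays after the mean of each age and gap class was subtracted. ODC1, the first enzyme of polyamine synthesis, had the highest r at 0.797 and also reached 0.661 with the _s_at probe set. TCF25 (0.638), FAF2 (0.620), LOC100513542 (0.619) and PHF12 (0.618) followed. The lowest values belonged to DCAF13 (-0.718), COX6C, a subunit of cytochrome c oxidase (-0.686), and TMX4 (-0.671), followed by PEX2, a peroxisome assembly factor, and VKORC1L1 (-0.626 each). With nothing subtracted the most alike genes were CD74 (0.722), SLA-DRB1 (0.719), FBXO21 (0.709), NSD3 (0.707) and SLA-DRA (0.706). CD74, SLA-DRB1 and SLA-DRA encode parts of class II antigen presentation, and their signals differed by 1.77, 1.36 and 2.19 between 63 and 91 dpc. The mean of 9 macrophage markers was 7.21 to 7.93 at 63 dpc and 8.14 to 8.70 at 91 dpc. Between these ages 5 of the markers were called higher, 1 lower and 3 neither. The values share arrays, labelling and normalization, and the diet at 35 dpc is still in these values, so no test was made.

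The other genes of the pathway were counted beside the whole array. Of 72 measured genes in 7 lists, 41 rose and 20 fell between 35 and 63 dpc, and 29 rose and 22 fell between 63 and 91 dpc. Over all probe sets 32.5% rose and 28% fell early, and 29.5% rose and 29% fell late, so most of the array changed too. From 35 to 91 dpc 40 of the 72 rose and 25 fell, where 40.8% of all probe sets rose and 39.1% fell. Some genes stand in more than 1 list. With the erythroid covariate, 6 rose and 4 fell from 63 to 91 dpc. Where a gene's late change is given below and this covariate ended its call, the value under the covariate is given too.

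The first list held relatives of CYP4A and its electron donors. Among CYP2E1, a P450 enzyme, and the donors POR, CYB5A and CYB5B, 2 rose and 1 fell between 35 and 63 dpc (median 0.44, against 0.05 for all probe sets), and 1 rose and 1 fell between 63 and 91 dpc (median 0.08, against -0.03). With the erythroid covariate 0 rose and 0 fell late. CYB5A, the microsomal cytochrome b5, rose by 1.25 ± 0.14 (SE; limma, adjusted p = 1.6e-08) and then by 0.36 ± 0.14 (adjusted p = 0.0259; 0.87 with the covariate, adjusted p = 0.135). CYB5B, its form in the outer mitochondrial membrane, fell by 1.01 ± 0.13 and then fell by 0.65 ± 0.13 (-0.43 with the covariate, adjusted p = 0.472). POR, which passes electrons from NADPH to the P450 enzymes, rose by 0.45 ± 0.11 at the early step and differed by -0.19 ± 0.11 at the late one (adjusted p = 0.135). No other CYP4 symbol of the list had a probe set of its own in the array annotation, in which 13826 probe sets carry no symbol.

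The next list held dehydrogenases that act after CYP4A. Of 5 measured, 4 rose and 1 fell early (median 0.54), and 3 rose and 1 fell late (median 0.19). Of all probe sets 32.5% rose and 28% fell early, and 29.5% and 29% late. With the erythroid covariate 1 of these genes rose and 1 fell late. ALDH1A1, an aldehyde dehydrogenase, rose by 1.40 ± 0.13 and by 0.85 ± 0.13 (SE; limma, adjusted p = 1.13e-09 and 3.42e-06). ADH5, an alcohol dehydrogenase that accepts omega-hydroxy fatty acids, rose by 0.76 ± 0.09 and by 0.51 ± 0.09, although its late value was -0.05 with the erythroid covariate (limma, adjusted p = 0.916).

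PPARA itself was above the 40th percentile on 1 array and was not tested. Of 14 measured genes of its list, 10 rose and 3 fell early (median 0.66), and 7 rose and 5 fell late (median 0.50). Of all probe sets 32.5% rose and 28% fell early, and 29.5% and 29% late. With the erythroid covariate 2 genes of this list rose and 2 fell late. PPARGC1A, a coactivator of fatty acid oxidation, rose by 2.37 ± 0.17 (SE) late, and the fatty acid binding protein FABP1 by 1.14 ± 0.12. CPT1A, which admits fatty acids to mitochondria, rose by 0.77 ± 0.13 late, with -0.27 under the erythroid covariate (limma, adjusted p = 0.603). TXNIP rose by 1.27 ± 0.13 early. ANGPTL4, an inhibitor of lipoprotein lipase, fell by 1.97 ± 0.22 early and the mitochondrial carrier UCP2 by 2.29 ± 0.26 late. With the covariate UCP2 was at -1.16 (limma, adjusted p = 0.282). Without it all these differences passed the limma test at an adjusted p of 8.99e-06 or smaller.

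Of 21 genes of mitochondrial oxidation, 7 rose and 7 fell early (median -0.02), shares near the 32.5% and 28% of all probe sets. Late, 4 rose and 10 fell (median -0.16), beside 29.5% and 29% of all probe sets, and with the covariate 0 rose and 1 fell. ACADVL and ACADS, dehydrogenases for very long and short chains, fell by 0.97 ± 0.10 and 0.85 ± 0.11 (SE) early, and SLC25A20, the acylcarnitine carrier, by 0.92 ± 0.11. OXCT1, which uses ketone bodies, fell by 1.41 ± 0.14 late (-0.47 with the covariate, limma, adjusted p = 0.401). ACADS also fell late, by 0.68 ± 0.11 (-0.67 with the covariate, limma, adjusted p = 0.143). Of 15 peroxisomal genes 9 rose and 5 fell early (median 0.48), and 6 rose and 3 fell late (median 0.15). Beside them stand 29.5% and 29% of all probe sets late, and with the covariate 1 rose and 1 fell. PHYH, the enzyme of alpha oxidation, rose by 1.18 ± 0.12 and 0.98 ± 0.12, and CRAT, a carnitine acyltransferase, fell by 0.82 ± 0.10 early. PEX19, needed for peroxisome assembly, fell by 0.71 ± 0.14 late (-0.75 with the covariate, adjusted p = 0.195).

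For fatty acid uptake and activation, 7 of 11 genes rose and 3 fell early (median 0.59), and 6 rose and 2 fell late (median 0.42). Of all probe sets 32.5% rose and 28% fell early, and 29.5% and 29% late. With the erythroid covariate 1 of these genes rose and 0 fell late. The acyl-CoA synthetases ACSL1 and ACSL5 rose by 1.38 ± 0.14 and 1.31 ± 0.12 (SE) early, and ACSL6 fell by 1.503 ± 0.21 late (-0.78 with the covariate, limma, adjusted p = 0.373). FABP3, a fatty acid binding protein best known from muscle, fell by 2.46 ± 0.19 early and fell by 2.44 ± 0.19 late (-1.47 with the covariate, adjusted p = 0.0522).

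Bile acid genes, the pathway of CYP4A21, had 9 of 11 higher and 1 lower at each step (medians 1.06 and 0.83), where 32.5% of all probe sets rose early and 29.5% late. With the erythroid covariate 2 rose and 0 fell late. The export pump for bile salts, ABCB11, rose by 2.83 ± 0.20 early and 2.46 ± 0.20 late, and NR5A2, a nuclear receptor of this pathway, by 1.80 ± 0.16 and 1.36 ± 0.16 (late 0.53 with the covariate, limma, adjusted p = 0.422). ACOX2, which shortens the bile acid side chain, rose by 1.19 ± 0.10 and 0.51 ± 0.10 (late 0.16 with the covariate, adjusted p = 0.751), and NR1I2, the pregnane X receptor, rose by 1.30 ± 0.18 late. CYP27A1, a sterol hydroxylase, fell by 0.30 ± 0.10 early and fell by 0.47 ± 0.10 late (limma, adjusted p = 0.0104 and 0.000164). With the covariate CYP27A1 was at -0.23 at both steps (limma, adjusted p = 0.128 and 0.629). CYP7A1 and CYP8B1, the classical sterol hydroxylases, were above the 40th percentile on 0 arrays and were not tested.

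**Figure D4:**
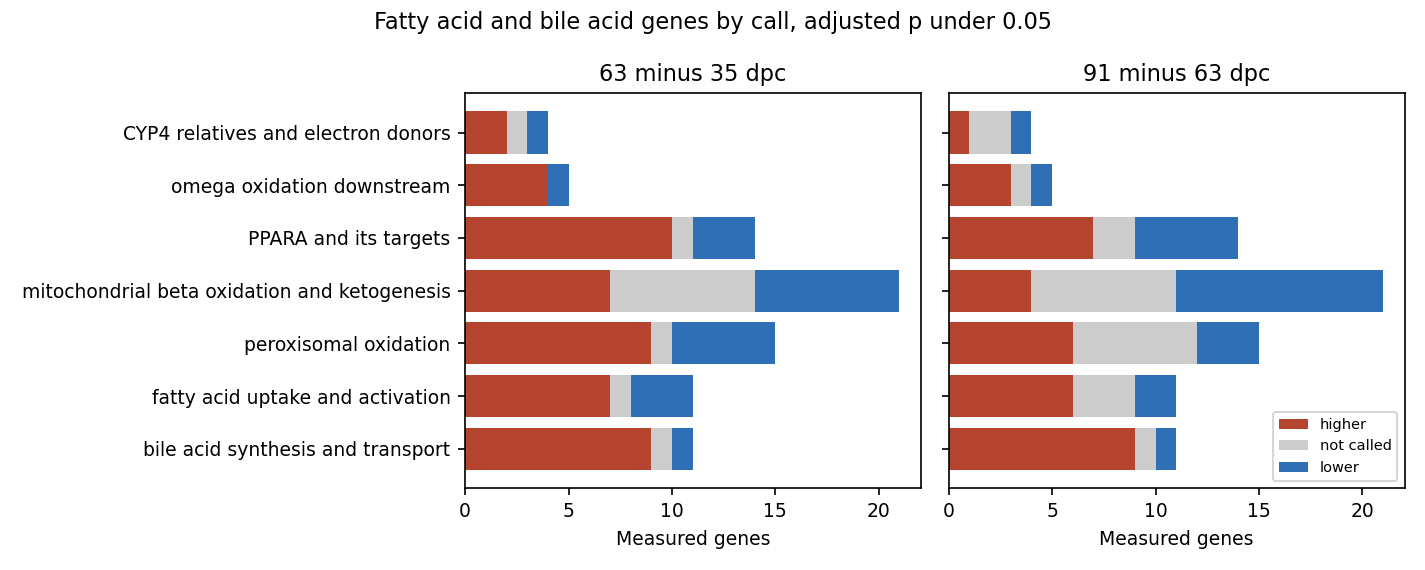
Number of measured genes per pathway list that were higher, lower or not called (limma, adjusted p under 0.05) at the early (left) and late (right) age step, without the erythroid covariate. Bile acid genes have 9 of 11 higher at both steps, and mitochondrial genes have 10 of 21 lower at the late step. The late 9 include NR1I2, which lay at the floor of the values at 63 dpc.

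The diets left none of these 72 genes past the test at 63 or 91 dpc. At 63 dpc the smallest unadjusted p belonged to PPARGC1A, which differed by 0.90 ± 0.23 (SE; unadjusted p = 0.000559; limma, adjusted p = 1), with 4.57 in methyl-diet and 3.67 in control fetuses. CPT1A differed by 0.51 ± 0.18 (adjusted p = 1) and the bile acid importer SLC10A1 by 0.62 ± 0.29 (adjusted p = 1). CYP2E1, another P450 of the endoplasmic reticulum, differed by -0.98 ± 0.52 (adjusted p = 1), with 3.27 in methyl-diet and 4.24 in control fetuses. The lower of these means lay near the 40th percentile of the arrays (2.74 to 2.93). At 91 dpc PLIN2, a lipid droplet protein, differed by -0.55 ± 0.20 (adjusted p = 0.517), and CYP39A1, an oxysterol hydroxylase, by -0.65 ± 0.28 (adjusted p = 0.653). POR differed by -0.31 ± 0.16 at that age (adjusted p = 0.831).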

How the data were processed

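Liver RNA was labelled and hybridised to 1 array per sample. The deposited values are log2 signals, 1 per probe set and array, used as the authors deposited them; the submitters' processing notes name GCOS 1.1.1 without its role, and the normalization is not given in the sources used here. After 124 control probe sets were set aside, 15327 of 24123 were kept because they lay above the array's 40th percentile on at least 5 arrays. limma 3.58.1 in R 4.3.3 fitted 6 group means with moderated errors following an intensity trend (26 residual and a median of 4.14 prior degrees of freedom). A call needs an adjusted p below 0.05 (Benjamini-Hochberg, over the 15327). Array number limits the precision. Symbols came from the array annotation, which can be old; genes were read from their brightest probe set.

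The members and gene lists were chosen with earlier results of these data known. Named genes are the CYP4A probe sets, up to 3 genes per list and contrast with the smallest p, a set of fixed pathway genes, and the 5 highest and 5 lowest correlations. Large-gap arrays have bioC minus bioB above 1.2. Alternatives were another filter, normalization, weights, spread estimate, array class, covariates and leaving out single arrays. The fitting was tested on simulated data.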

Additional observations from a re-analysis of the deposited data

Results flagged for a closer look

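On the _at probe set the methyl-diet array 1 at 35 dpc stood apart from the other 4 of its group, at 5.36 against a nearest value of 7.15, which is 0.864 of the group's whole range. The same array was the lowest methyl-diet array of its age on the _s_at probe set, at 5.74. On the _s_at probe set the methyl-diet array 6 at 63 dpc stood apart from the other 5, at 5.00 against a nearest value of 5.44, which is 0.716 of the range. Both gaps exceeded Dixon's critical value for their group size, a limit that chance passes in about 1 in 20 groups. The limit holds for a single group and was not adjusted for the number of groups and probe sets looked at. The array at 35 dpc is also among those that chose the genes.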

How the results depend on the processing

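No paired analysis was possible because the labels carry only running sample numbers, so the replicate numbers pair nothing. The late rise and the rise from 35 to 91 dpc passed the test under every alternative run except the erythroid mean as a covariate, where the rise from 35 to 91 dpc was 1.196 and 3.09 (limma, adjusted p = 0.174 and 0.0561; the _s_at probe set first) and the late rise 1.30 and 2.64. The pathway counts then were 6 higher and 4 lower late, and 23 and 13 from 35 to 91 dpc. Leaving out single arrays gave 1.44 to 1.64 and 1.55 to 1.80 for the late rise and 1.40 to 1.60 and 1.66 to 2.09 from 35 to 91 dpc. The rise from 35 to 91 dpc uses the arrays at 35 dpc that chose the genes. None of these alternatives removes that choice, so its passes are not independent of it. The early step, near 0, changed sign for the _s_at probe set in large-gap arrays (0.092), with the gap class as a block and dap as a covariate (0.014, an alternative chosen after seeing the data) and without single arrays (-0.13 to 0.045). For the _at probe set it did so under quantile normalization (-0.01), in small-gap arrays (-0.31), with the 3′ to 5′ ratio as a covariate (-0.047) and without single arrays (-0.036 to 0.40). The change of the diet effect from 63 to 91 dpc turned for the _s_at probe set with array weights (-0.058) and without single arrays (-0.049 to 0.35), and for the _at probe set in small-gap arrays (0.39), with the ratio as a covariate (0.60), with the block and dap (0.18) and without single arrays (-0.41 to 0.11). The diet estimates without single arrays ran from -0.61 to -0.33 and -0.94 to -0.42 at 63 dpc, from -0.50 to -0.17 and -1.01 to -0.60 at 91 dpc, and from 1.32 to 1.66 and 1.91 to 2.77 at 35 dpc. Among named genes, ADH5 late (-0.049) and CPT1A late (-0.27) and from 35 to 91 dpc (-0.37) changed sign under the erythroid covariate. The causes were not tested. Signal over background limits the lowest control values of the _at probe set at 35 dpc.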
